A study of Mus musculus with 12 samples.

Results

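The replication-dependent histone genes of the mouse were examined in RNA of the ileal epithelium. Members were the protein-coding genes whose symbol in the GENCODE M21 annotation begins with Hist1, Hist2, Hist3 or Hist4 and that had at least 10 raw counts summed over all libraries. Of 67 such genes in the annotation, 65 were in the files and 56 were members, of 46078 genes listed and 21759 with at least 10 counts. The members comprised 6 H1, 14 H2A, 13 H2B, 11 H3 and 12 H4 genes. The lowest member was Hist1h2bp with 19 counts, and the highest gene outside was Hist3h2ba with 9.

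RNA sequencing was performed on scrapings of the proximal ileum of male C57BL/6 mice that were 28 days old at the first dose and 56 days old at collection. All animals were gavaged every 4 days, 7 times in all, with sesame oil alone (vehicle) or with 3, 10 or 30 µg/kg TCDD, a dioxin and agonist of the aryl hydrocarbon receptor (AhR). These are called the low, middle and high dose. Each of the 4 groups had 3 libraries, made from total RNA with a NuGen Ovation mouse kit and a DNase step. The study counts mice as its replicates, but the labels do not tie each library to an animal, so p-values measure the spread between these libraries. Whole scrapings hold several cell types, and more cells of a type cannot be told apart from more RNA per cell.

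Core histones H2A, H2B, H3 and H4 form the protein spool of the nucleosome, and linker histone H1 binds the DNA between nucleosomes. The replication-dependent genes are transcribed mainly in S phase, when new chromatin must be packaged, and in the ileum dividing cells lie in the crypts. Their mRNAs usually end in a short stem-loop rather than a poly(A) tail. That stem-loop is bound by SLBP, and NPAT activates the genes at the histone locus body.

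The stem-loops are shown because this 3′ element sets the genes apart from other mRNAs and divides H4 from the other classes. A stem of 6 paired bases around a loop of 4 bases was searched in the first 100 bases after the stop codon of the annotated transcripts. It was found in 38 of 56 members, and in 38 of the 42 (90.5%) that have at least 40 annotated bases there, against 0.453% of 15442 other protein-coding genes. The distance from the stop codon was between 21 and 54 bases, with a median of 31. Of the members with enough sequence, Hist1h1a, Hist1h2bc, Hist1h2br and Hist2h2be had no match, which says only that these letters are not in that window. In the GENCODE M21 transcripts the stem-loops of 6 members named below read 5′ to 3′ as follows, with the paired bases in capitals.
Hist1h1e: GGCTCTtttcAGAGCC
Hist1h2bg: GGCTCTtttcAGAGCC
Hist1h3e: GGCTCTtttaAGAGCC
Hist1h4d: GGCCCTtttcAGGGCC
Hist1h4j: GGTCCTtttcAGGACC
Hist2h4: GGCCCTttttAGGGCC
The first form was the most frequent, with 19 members (3 H1, 7 H2A, 5 H2B and 4 H3). The form printed for Hist1h4d was found in 6 members, all of class H4.

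Promoters were matched in the RefSeq table (GRCm38.p6) for 49 members and searched on both strands from 250 bases before to 50 bases after the start. CCAAT, the box bound by NF-Y, was present in 41 of 49 members, namely in all matched H1, H2A, H2B and H3 genes and in 3 of 11 H4 genes, against 37.9% of 27025 promoters. The octamer ATTTGCAT, bound by Oct-1, was in 6 of 13 H2A and 4 of 11 H2B promoters and in no promoter of the other classes, against 1.75% of all promoters. H2A and H2B genes that lie head to head share the bases between them, so a site there can be counted for both. Hist1h2ah and Hist1h2bk have 1 octamer in common, and so do Hist1h2ae and Hist1h2bg. GCGTG, the core of the dioxin response element, was in 10 of 49 members (20.4%) against 32.5% of all promoters. The bases before the start of 3 genes are printed to show the arrangement in an H2B, an H3 and an H4 gene, with CCAAT, ATTTGCAT and GCGTG on either strand in capitals. They lie at chr13:23571150-23571399 (plus strand), chr13:23562386-23562635 (minus strand) and chr13:23581318-23581567 (plus strand).
Hist1h2bg: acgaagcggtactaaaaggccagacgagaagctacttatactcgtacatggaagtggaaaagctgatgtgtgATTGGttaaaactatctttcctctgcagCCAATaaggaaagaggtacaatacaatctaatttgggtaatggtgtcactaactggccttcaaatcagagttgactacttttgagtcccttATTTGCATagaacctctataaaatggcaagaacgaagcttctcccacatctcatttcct
Hist1h3e: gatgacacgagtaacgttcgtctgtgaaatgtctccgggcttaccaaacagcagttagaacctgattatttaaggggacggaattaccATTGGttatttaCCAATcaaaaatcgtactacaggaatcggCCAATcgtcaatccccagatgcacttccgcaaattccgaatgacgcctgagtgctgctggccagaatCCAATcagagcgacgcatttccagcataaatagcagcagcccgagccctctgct
Hist1h4d: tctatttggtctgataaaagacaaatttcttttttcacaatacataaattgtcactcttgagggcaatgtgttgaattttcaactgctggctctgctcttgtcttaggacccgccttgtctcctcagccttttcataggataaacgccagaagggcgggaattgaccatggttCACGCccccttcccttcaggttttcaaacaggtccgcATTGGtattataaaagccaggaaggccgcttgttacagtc

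Gene counts per library were between 11695887 and 22180274, so that 3 counts equal 0.135 to 0.257 CPM (counts per 1000000 gene counts of the library, with TMM factors for single genes and without them for class sums). These limits cover counting error only. Replicate 1 of the low dose stood apart, since 32 of the 56 members had their lowest CPM of all 12 libraries there. In the same library the summed CPM of the 15 listed G2 and mitosis genes (261) and of the 5 crypt stem cell markers (103) were also the lowest of the 12. Its summed enterocyte markers were at 21052 CPM, against 14711 to 15102 in the other libraries of that dose. Member and class totals, the median over all members and the member calls at the low dose are therefore given with and without it. Values of the gene lists at that dose include it.

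Histone mRNA was about 2-fold higher at the high dose, and 1.04-fold and 1.15-fold at the low and middle doses. The summed counts of all members, as CPM of gene counts, were 565 ± 31.4 (SD, n = 3) in vehicle and 1138 ± 88.0 at the high dose, a 2.01-fold difference. They were 589 ± 171 at the low dose and 648 ± 95.3 at the middle dose. Single libraries lay between 537 and 599 in vehicle, between 393 and 711 at the low dose, between 567 and 753 at the middle dose, and between 1036 and 1193 at the high dose. The high-dose libraries were all above every other library, and the middle dose overlapped vehicle. The low dose overlapped vehicle through its replicate 1 alone, since the other two libraries were at 662 and 711. Without replicate 1 the low-dose mean was 687, or 1.21-fold.

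The folds of the class sums ranged from 1.55 to 3.03. Summed H3 counts were 36.1 ± 2.93 CPM (SD, n = 3) in vehicle and 109 ± 14.5 at the high dose, or 3.03-fold. H2A was 2.76-fold higher (47.9 ± 2.32 against 132 ± 18.2) and H4 was 2.45-fold higher (155 ± 10.6 against 378 ± 27.5). H2B was 1.69-fold higher (86.8 ± 8.62 against 147 ± 7.46) and H1 was 1.55-fold higher (240 ± 7.51 against 371 ± 30.8). A sum follows its genes with the most counts, and the top 5 members held 44.1% of all member counts. In H2B, Hist1h2bc had 9556 counts over all libraries, against 3236 for the next gene, Hist1h2bg. The log2 change of Hist1h2bc at the high dose was 0.09, while the median over the 13 H2B members was 1.18. The median over the 6 H1 members was 0.74. In each class the lowest high-dose library was above the highest vehicle library. At the middle dose the folds were 1.60 for H2A and between 1.02 and 1.24 for the other classes. At the low dose they were 1.44 for H2A and between 0.916 and 1.11 for the others, and without replicate 1 of that dose 1.79 for H2A and between 1.07 and 1.23 for the others.

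**Figure D1:**
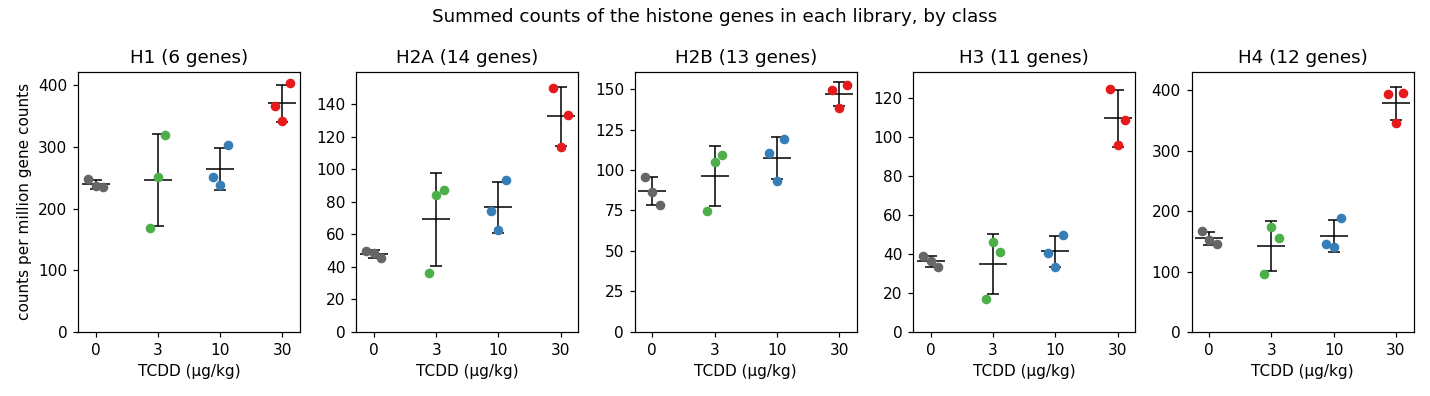
Summed counts of each histone class, as CPM of gene counts (vertical axis) by TCDD dose in µg/kg (horizontal axis). Points are libraries, and the black bars give the mean and SD of 3 libraries. In every class the 3 libraries of the high dose sit above the vehicle libraries, and the H3 mean goes from 36.1 to 109.

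Each gene was tested with edgeR's quasi-likelihood test, and was called when its Benjamini-Hochberg (BH) adjusted p over all 15823 genes tested was under 0.05 and its change at least 1.5-fold. Of the members, 52 passed the filter on low counts, which depends on the groups, so their counts are no support for a difference. Hist1h1t, Hist1h2bp, Hist1h2br and Hist1h3h did not pass. At the high dose 36 members were called higher, while 3.08% of all genes tested were, and 0 members were called lower, against 0.891%. By class these were 3 of 5 H1, 10 of 14 H2A, 6 of 11 H2B, 6 of 10 H3 and 11 of 12 H4 genes tested. With DESeq2 42 members were higher (3.61% of all genes), and with the trend over length and GC removed 19 were (1.90%). All 19 were among the 36. That trend was fitted on all protein-coding genes, members included, so it can remove part of the members' own change. Without vehicle replicate 3 the count was 23 (2.24% of all genes). No tested member lower than vehicle had an unadjusted p under 0.05 there, and DESeq2 called 0 lower.

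At the middle dose 1 member was called higher (Hist1h2bg; 0.487% of all genes) and 1 lower (Hist2h4; 0.126%). At the low dose 0 members were called higher (0.0569% of all genes) and Hist2h4 alone was lower (0.171%). At that dose 8 of 52 tested members had an unadjusted p under 0.05 in edgeR, 6 of them higher, against 1800 of all 15823 genes. DESeq2 called 1 member higher (0.209% of all genes). Without replicate 1 of that dose, 5 members were called higher, against 0.639% of all genes in that fit. These were Hist1h2ab, Hist1h2ae, Hist1h2ap, Hist1h2bg and Hist2h2ac. Hist2h4 was still called lower. The call at the middle dose of Hist1h2bg was lost when any vehicle library, or replicate 1 or 3 of that dose, was left out.

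Between the high and middle doses 20 members were called higher (2.17% of all genes) and 0 lower (0.607%) by edgeR. DESeq2 called 28 higher and 0 lower, and 0 were lower with an unadjusted p under 0.05. The 20 called by edgeR were 9 H4, 5 H3, 4 H2A, 2 H2B and 0 H1 genes. The edgeR count was 12 without replicate 1 and 8 without replicate 2 of the middle dose, and 11 without replicate 1 and 13 without replicate 3 of the high dose. A slope over the rank of the dose called 32 members higher (2.53% of all genes) and 0 lower (0.752%) by edgeR. DESeq2 called 37 higher and 0 lower, and 0 were lower with an unadjusted p under 0.05. Of the 32, 1 was not called at the high dose (Hist1h2bf). Without 1 of the high-dose libraries that slope called 15 (replicate 1), 17 (replicate 2) or 15 (replicate 3) members.

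Over all 56 members, from a fit of every gene with at least 10 counts, the median log2 change was 1.23 at the high dose, against -0.02 over all 21759 genes. At the middle dose it was 0.12 against -0.03, and at the low dose it was -0.00014 against -0.01. Without replicate 1 of the low dose the median over members was 0.25. At the high dose the class medians were 0.74 (H1), 1.46 (H2A), 1.18 (H2B), 1.56 (H3) and 1.25 (H4). In CPM, 44 of 56 members had all high-dose libraries above all vehicle libraries (11.6% of all genes) and 1 had all below (Hist1h2br, not tested; 11.1% of all genes). At the middle dose these were 14 members above and 2 below (10.1% of all genes in either direction).

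**Figure D2:**
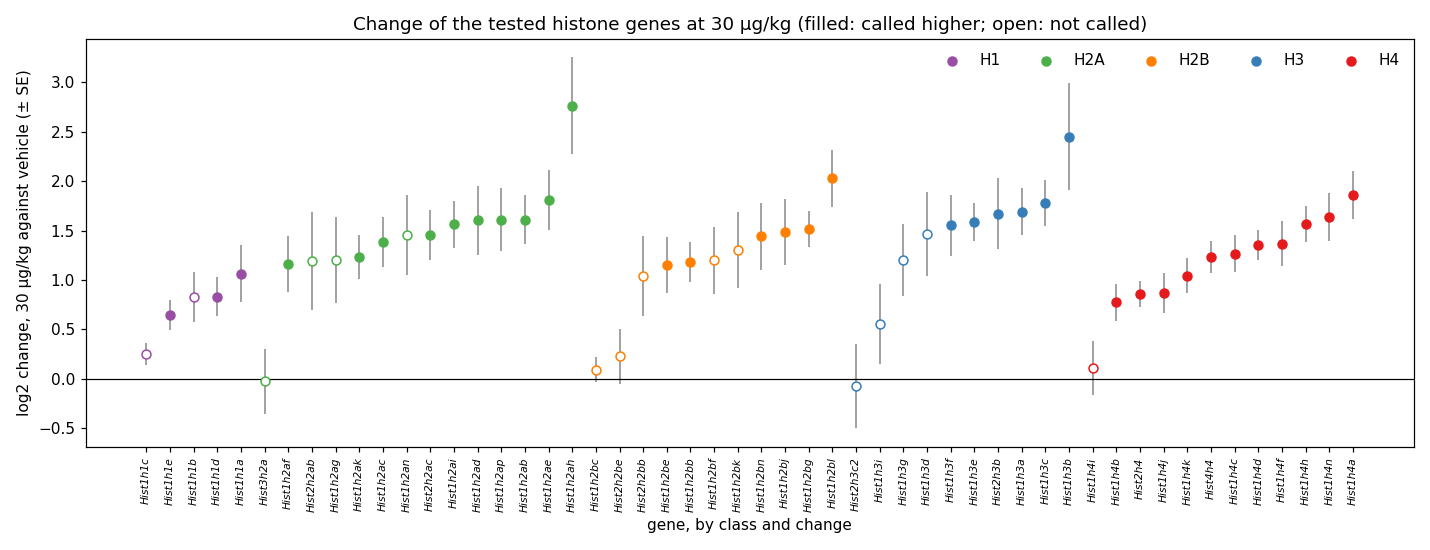
Log2 change at the high dose against vehicle (vertical axis) of the 52 tested histone genes, ordered by class and change along the horizontal axis. Filled points were called higher, open points were not called, and bars give ± SE. The 36 filled points include 11 of 12 H4 genes.

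Of the 12 H4 genes, 11 were called higher at the high dose by edgeR (3.08% of all genes tested). Hist1h4d (ENSMUSG00000061482, chromosome 13, 23581598 to 23582735) had 31.2, 31.5 and 29.0 CPM in the vehicle libraries and 75.1, 74.6 and 85.1 at the high dose. It had 19.0, 29.4 and 29.3 CPM at the low dose, the first below vehicle, and 30.6, 29.4 and 37.7 at the middle dose, the last above vehicle. Its log2 change at the high dose was 1.36 (SE 0.15, edgeR adjusted p 0.000232), and the groups did not overlap.

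Hist1h4h (ENSMUSG00000060981, chromosome 13, 23531050 to 23531519) had 35.2, 27.6 and 25.4 CPM in vehicle and 84.2, 85.3 and 91.1 at the high dose. It had 14.9, 25.7 and 22.0 CPM at the low dose and 21.3, 21.4 and 27.6 at the middle dose. The 6 lower-dose libraries thus lay in or under the vehicle range. The change at the high dose was 1.56 (SE 0.18, edgeR adjusted p 0.000278) against vehicle and 1.89 (SE 0.18, edgeR adjusted p 9.8e-05) against the middle dose. With the trend over length and GC removed the change against vehicle was 0.74, still called.

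Hist2h4 (ENSMUSG00000091405, chromosome 3, 96261682 to 96263311) was the one member called in both directions. It had 17.7, 14.7 and 15.2 CPM in vehicle, 6.03, 8.28 and 7.45 at the low dose, and 7.48, 8.62 and 8.69 at the middle dose. At the high dose it had 32.0, 26.6 and 27.2 CPM. Every library of both lower doses was below, and every library of the high dose above, the vehicle libraries. The log2 changes were -1.12 (SE 0.14, edgeR adjusted p 0.00435), -0.94 (SE 0.14, edgeR adjusted p 0.00703) and 0.85 (SE 0.13, edgeR adjusted p 0.00218) in order of dose. The fall at the low dose was not called when the compared groups were fitted alone (adjusted p 0.099). Of all 50-base windows of its transcripts, 99.0% occur in no other annotated transcript.

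Hist4h4 (ENSMUSG00000096010, chromosome 6, 136801553 to 136804415), the only member on that chromosome, had 6.93, 6.61 and 8.60 CPM in vehicle and 17.1, 17.2 and 17.7 at the high dose. Its change was 1.23 (SE 0.16, edgeR adjusted p 0.000733). At the middle dose it had 5.03, 5.73 and 7.53 CPM, overlapping vehicle. The remaining named H4 genes changed by 1.86 (SE 0.24) for Hist1h4a, 1.64 (SE 0.24) for Hist1h4n, 1.26 (SE 0.19) for Hist1h4c and 0.87 (SE 0.20) for Hist1h4j. The edgeR adjusted p of these 4 was between 0.000576 and 0.0244. The call of Hist1h4j was lost with the trend over length and GC removed (change 0.30), and without vehicle replicate 1 or 3 or high-dose replicate 1 or 3. That of Hist1h4n was lost with the trend removed (change 0.80, edgeR adjusted p 0.0524). Hist1h4i, chosen after its values were seen as the only H4 gene not called, had 1.46, 1.94 and 1.26 CPM in vehicle and 1.43, 1.78 and 1.86 at the high dose.

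In class H3, Hist1h3e (ENSMUSG00000069273, chromosome 13, 23561534 to 23562369) had 10.0, 8.69 and 8.92 CPM in vehicle and 30.6, 24.9 and 27.6 at the high dose. It had 12.9, 12.4 and 14.6 CPM at the middle dose, all above vehicle, and 6.11, 11.6 and 11.2 at the low dose. The change at the high dose was 1.59 (SE 0.19, edgeR adjusted p 0.000365), and that at the middle dose was 0.53 (SE 0.19, edgeR adjusted p 0.217) and was not called.

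Hist1h3c (ENSMUSG00000069310, chromosome 13, 23744973 to 23745602) had 8.85, 7.77 and 7.08 CPM in vehicle and 32.6, 25.0 and 23.5 at the high dose. At the middle dose it had 6.76, 5.29 and 9.24 CPM, around the vehicle values. The change at the high dose was 1.78 (SE 0.24, edgeR adjusted p 0.000733). Hist1h3a changed by 1.69 (SE 0.24, edgeR adjusted p 0.00118) and Hist1h3f by 1.55 (SE 0.31, edgeR adjusted p 0.0105), a call lost without vehicle replicate 3 (edgeR adjusted p 0.0559). Hist1h3b, Hist2h3b and these 4 were the H3 genes called. Hist2h3c2, chosen after its values were seen, had 0.62 to 1.25 CPM in vehicle and 0.547 to 1.02 at the high dose.

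Of the H2A genes 10 of 14 were called higher at the high dose (3.08% of all genes tested). All middle-dose libraries were above vehicle in 6 of them (10.1% of all genes). Hist1h2ab (ENSMUSG00000061615, chromosome 13, 23751126 to 23751598) had 7.89, 8.51 and 7.66 CPM in vehicle and 5.88, 14.3 and 14.0 at the low dose. It had 9.93, 10.4 and 12.4 CPM at the middle dose and 27.3, 23.1 and 23.1 at the high dose, so that both these doses lay above vehicle. The change at the high dose was 1.61 (SE 0.25, edgeR adjusted p 0.00211).

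Hist1h2ap (ENSMUSG00000094777, chromosome 13, 21833026 to 21833507) had 6.31, 6.01 and 3.99 CPM in vehicle, 12.7, 10.9 and 17.1 at the middle dose, and 20.6, 14.2 and 14.9 at the high dose. The values of the last 2 doses overlap each other, and both lie above vehicle. The change was 1.32 (SE 0.32, edgeR adjusted p 0.0906) at the middle dose and 1.61 (SE 0.32, edgeR adjusted p 0.00968) at the high dose. The changes at the high dose of Hist1h2ae, Hist1h2ai and Hist1h2ak were 1.81 (SE 0.30), 1.56 (SE 0.24) and 1.23 (SE 0.22), with edgeR adjusted p of 0.00353, 0.00189 and 0.00566. With the trend over length and GC removed the calls of Hist1h2ak (change 0.37, edgeR adjusted p 0.257) and Hist1h2ap (change 0.76, edgeR adjusted p 0.102) were lost, and that of Hist1h2ap also without vehicle replicate 3. Hist3h2a, on chromosome 11 and chosen after its values were seen, had 1.66 to 2.59 CPM in vehicle and 1.70 to 2.84 at the high dose.

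Hist1h2bg (ENSMUSG00000058385, chromosome 13, 23571396 to 23572013), whose promoter is printed above, was the H2B gene called at the middle as well as the high dose. It had 8.96, 8.18 and 8.55 CPM in vehicle, 10.2, 16.9 and 17.9 at the low dose, 18, 15.5 and 19.9 at the middle dose, and 25.6, 22.4 and 25.4 at the high dose. Every treated library was above every vehicle library. The changes were 0.81 (SE 0.18, edgeR adjusted p 0.124), 1.06 (SE 0.18, edgeR adjusted p 0.0184) and 1.51 (SE 0.18, edgeR adjusted p 0.000344) in order of dose.

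Hist1h2bc (ENSMUSG00000018102, chromosome 13, 23684199 to 23692908) had the most counts of class H2B and was not called. It had 51.7, 49.9 and 44.4 CPM in vehicle and 47.0, 60.4 and 48.4 at the high dose, which overlap. Its change was 0.09 (SE 0.13, edgeR adjusted p 0.728). Hist1h2bl rose by 2.03 (SE 0.29, edgeR adjusted p 0.00137) and Hist1h2bb by 1.18 (SE 0.21, edgeR adjusted p 0.00443). The call of Hist1h2bb was lost with the trend over length and GC removed (change 0.35, edgeR adjusted p 0.234). Hist2h2be, chosen after its values were seen, had 2.14 to 3.62 CPM in vehicle and 2.14 to 4.08 at the high dose.

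The linker histones had the smallest fold of the class sums. Hist1h1e (ENSMUSG00000051627, chromosome 13, 23620629 to 23622558) had 99.4, 102 and 107 CPM in vehicle and 152, 154 and 177 at the high dose, with no overlap. Its change was 0.64 (SE 0.15, edgeR adjusted p 0.0261), and the call was lost when any library of the 2 groups was left out and with the trend over length and GC removed. Hist1h1d changed by 0.83 (SE 0.20, edgeR adjusted p 0.0299), a call also lost without any library of the 2 groups and with the library index as a covariate. Hist1h1c (ENSMUSG00000036181, chromosome 13, 23738808 to 23740367) had 82.1, 72.0 and 67.5 CPM in vehicle and 79.1, 87.2 and 97.4 at the high dose. Its change of 0.25 (SE 0.11, edgeR adjusted p 0.212) was not called.

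Germline genes of the family were at or near the floor of 3 counts. Hist1h1t, the testis linker histone, had 29 counts in all libraries together, at most 5 in any one. Hist1h2aa and Hist1h2ba, the testis H2A and H2B, had 1 count each. Among the other genes outside, Hist1h2ao and Hist1h4m had 6 counts each. The low member Hist1h3h had 8, 4 and 7 counts in vehicle, 1, 0 and 0 at the middle dose, and 19, 1 and 7 at the high dose, and Hist1h2br had 6, 7 and 13 in vehicle against 3, 1 and 0 at the high dose. No fold is given for these.

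**Figure D3:**
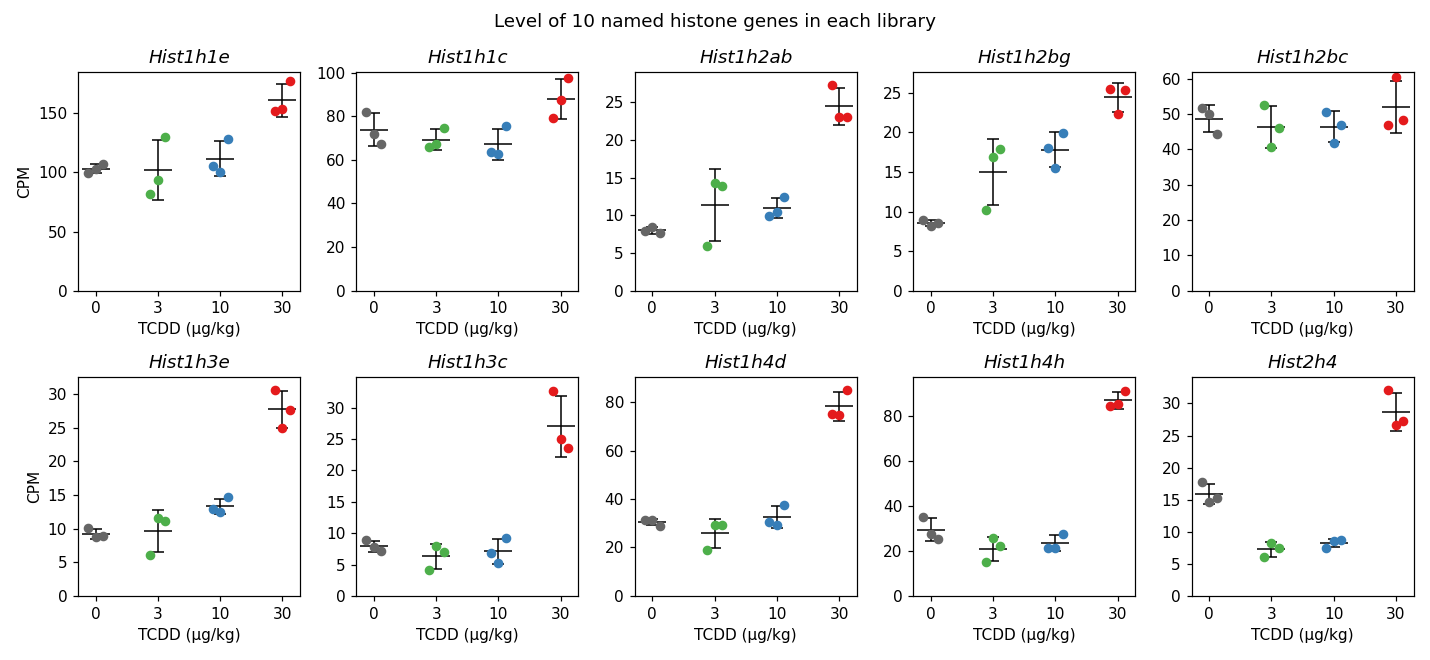
CPM (vertical axis, from 0) of 10 named histone genes by TCDD dose in µg/kg (horizontal axis). Points are libraries, and black bars give the mean and SD of 3 libraries. Hist2h4 lies below vehicle at the low and middle doses and above it at the high dose, and Hist1h2bc stays near 50 CPM, with 47.0 to 60.4 at the high dose.

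Levels of different genes were compared only per length, as mean CPM per 1000 nt of annotated exon. The order depends on the annotated ends, which can lie far past the stem-loop. The stem-loop of Hist1h1e lies 1153 nt before the end of its 1930 nt transcript, and that of Hist1h1c 840 nt before the end of 1560 nt. In Hist1h4h it lies 46 nt before the end of 470 nt. Where an mRNA ends near its stem-loop, a long annotated end makes its value here too low. In vehicle Hist1h4h was first with 62.5 ± 10.9 (SD, n = 3), then Hist1h1e with 53.4 ± 2.01, Hist1h1c with 47.4 ± 4.81 and Hist1h2bc with 42.1 ± 3.31. Hist1h4h and Hist1h1e differed by less than the SD of Hist1h4h, and the other neighbours by little more than the larger SD. At the high dose Hist1h4h was again first with 185 ± 7.93, and Hist1h2bc was in place 13 with 44.9 ± 6.36.

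Most H2A and H2B genes lie head to head in pairs, and 10 such pairs had 2 members, with 175 to 301 bases between the starts. In 3 pairs both genes were called higher at the high dose, including Hist1h2ae (log2 change 1.81) and Hist1h2bg (1.52), here from the fit of all members. In 6 pairs 1 gene was called, and in the pair of Hist1h2an and Hist1h2bp neither was called, Hist1h2bp not being tested. The widest gap between tested partners was that of Hist1h2ah (2.77) and Hist1h2bk (1.31). The log2 change of Hist1h2ac was 1.39 and that of its partner Hist1h2bc 0.09, and that of Hist2h2ac was 1.46 and of its partner Hist2h2be 0.23. Neither of these H2B partners was called.

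The members were also grouped by their annotated 3′ ends. Of 31 members whose transcripts end at most 100 nt past the stop codon, the median log2 change at the high dose was 1.37 and the lowest was 0.56. It was 1.31 for 16 members ending up to 1000 nt past it, and 0.83 for 9 members ending further out, namely Hist1h1d, Hist1h1e, Hist1h2ac, Hist1h2be, Hist1h2br, Hist2h2be, Hist2h4, Hist3h2a and Hist4h4. In these groups 21 of 30, 9 of 14 and 6 of 8 tested were called higher (3.08% of all genes tested). These are descriptions, and the difference was not tested.

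Reads were assigned to a gene where they aligned to a single place, and the share of a member's 50-base windows found in no other annotated transcript had a median of 48.1%, from 0 to 100%. Windows shared with a transcript that overlaps the gene on either strand also count as not unique, so this share does not measure alignment alone. Hist2h3b and Hist2h2bb, for example, overlap other genes and had 0% unique windows, but 951 and 632 counts. The median change at the high dose was 1.38 for the 28 members under 50% and 1.17 for the 28 at 50% or over. Of these, 17 and 19 were called higher (3.08% of all genes tested). Reads that aligned to more than 1 place made up 32.5 to 34.6% of reads in vehicle and 36.2 to 38.8% at the high dose. Exons of 17 members, among them all 14 H2A genes, overlap a gene on the opposite strand, and 5 overlap one on the same strand, such as Hist1h1e with Hist1h2be. The strand setting is not given in the sources used here, so reads of such neighbours cannot be told apart.

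Most histone genes are short, and the other short genes also had positive median changes at the high dose. Lengths are those of the annotated exons, which for some members run far past the stem-loop. In Hist1h1d it lies 4884 nt before the end of 7425 nt. Where the mRNA ends near the stem-loop, such a member is set beside genes with longer mRNAs. Among the rest of the protein-coding genes, those of 300 to 599 nt in exons had a median log2 change of 0.66 (103 genes), and 26 of the 58 tested were called higher (44.8%). For the 29 members of that length the median was 1.45, and 20 of 28 tested were called. Between 600 and 999 nt the medians were 0.30 for 318 other genes and 1.17 for 12 members. Between 1000 and 1999 nt they were 0.15 for 1824 other genes and 0.75 for 8 members. With the trend over length and GC removed, the median over all members was 0.80. The members were among the genes that set this trend, so their own change can lower that value. The trend also used annotated lengths, so for members with long annotated ends it may remove too little. The part of length in the change was not tested further.

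**Figure D4:**
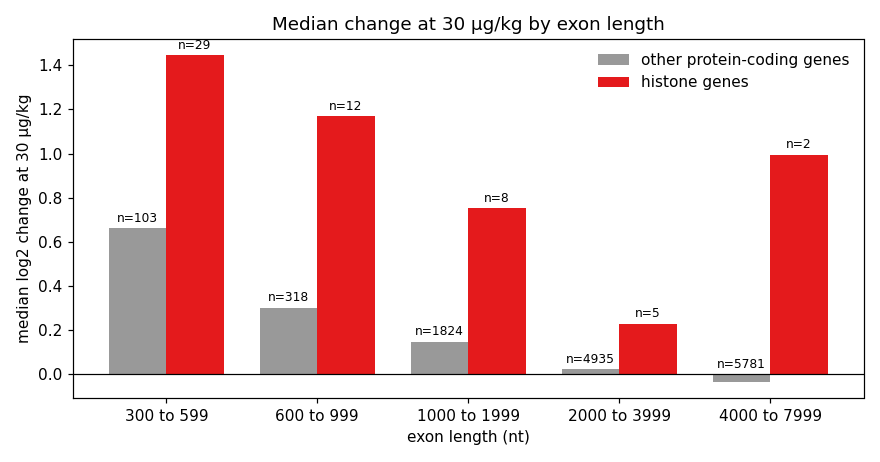
Median log2 change at the high dose (vertical axis) by exon length in nt (horizontal axis), for histone genes (red) and other protein-coding genes (grey), with the number of genes above each bar. The histone median is above that of the other genes in each class of annotated length, 1.45 against 0.66 in the shortest. The longest classes hold 5 and 2 members.

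Genes that act beside the histones in S phase and mitosis were also examined. Of 37 listed DNA replication genes tested, 2 were called higher at the high dose (3.08% of all genes) and 0 lower. The list median log2 change was 0.41, and 15 had an unadjusted p under 0.05, against 3422 of all 15823 genes tested. The 2 called were Prim1 and Ccne2. Prim1, the primase subunit, had a mean of 3.72 CPM in vehicle and 6.56 at the high dose (change 0.81, SE 0.20, edgeR adjusted p 0.0304). Ccne2, cyclin E2, changed by 0.70 (SE 0.17, edgeR adjusted p 0.0347). Of 15 G2 and mitosis genes, Ube2c was called higher (change 1.03, SE 0.27, edgeR adjusted p 0.0406), with a list median of 0.54, and 8 had an unadjusted p under 0.05. At the low and middle doses 0 genes of either list were called. The DNA replication median was 0.25 and 0.38 at these doses, and the G2 and mitosis median 0.42 and 0.59. Between the high and middle doses the medians were 0.08 and -0.07, with 0 called by edgeR or DESeq2. In both summed lists every middle-dose library was above every vehicle library. These were 376 to 447 against 320 to 358 CPM for DNA replication, and 459 to 600 against 321 to 358 CPM for G2 and mitosis. At the low and middle doses DESeq2 called 0 too. There 5 and 8 DNA replication genes had an unadjusted p under 0.05, and 4 and 10 G2 and mitosis genes did. Over all 15823 genes tested these counts were 1800 and 2511.

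Factors that process or carry histones and their mRNAs had small changes. Of 15 genes of histone mRNA 3′ end processing 0 were called at any dose by edgeR or DESeq2, with a median of 0.07 and 0 unadjusted p under 0.05 at the high dose. Slbp, the stem-loop binding protein, had a mean of 32.1 CPM in vehicle and 34.4 at the high dose (change 0.10, SE 0.09, edgeR adjusted p 0.58). Npat had 13.3 and 13.9 CPM (change 0.07, SE 0.14, edgeR adjusted p 0.835). Of 19 histone chaperone genes 0 were called by edgeR at any dose, with a median of 0.14 at the high dose. There 3 had an unadjusted p under 0.05, against 3422 of all 15823 genes tested, and DESeq2 called 1. Of 11 replacement variant genes, which are expressed outside S phase, 10 were tested and H2afj was called higher (change 0.61, SE 0.10, edgeR adjusted p 0.00391). The median of these 10 at the high dose was 0.36, and 6 had an unadjusted p under 0.05 in edgeR (3422 of all 15823 genes did).

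Markers of other cells moved with dose in part. Of 6 Paneth cell markers, which mark a crypt base secretory cell, 5 were called higher at the high dose, and their summed CPM was 661 to 1002 in vehicle and 2074 to 2794 at the high dose. That sum was 1052 to 1433 at the middle dose, with every library above vehicle. At the low dose it was 673 in replicate 1 and 1478 and 1692 in the others. At the low and middle doses 5 and 4 of the 6 had an unadjusted p under 0.05, against 1800 and 2511 of all 15823 genes. At these doses edgeR called 0, and DESeq2 called 0 and 1. The 5 crypt stem cell markers summed to 140 to 206 CPM in vehicle and 192 to 230 at the high dose, with 0 called, and 0 of 7 enterocyte markers were called. In each of these 2 lists 1 gene had an unadjusted p under 0.05 at the high dose (3422 of all 15823 genes did), and DESeq2 called 0. Of 6 tested T cell markers Cd3g was called higher at the high dose. There edgeR called 0 of 6 tested B cell and 0 of 6 smooth muscle markers in either direction. The 6 B cell markers had a median log2 change of -2.26, all 6 had an unadjusted p under 0.05, and DESeq2 called 4. The listed B cell markers summed to 3.77 to 60.8 CPM in vehicle and 3.99 to 6.73 at the high dose. The smooth muscle markers summed to 50.2 to 179 CPM in vehicle, 19.8 to 31.2 at the middle dose and 30.9 to 113 at the high dose. All 6 had an unadjusted p under 0.05 at the middle dose and between the high and middle doses, against 2511 and 3324 of all 15823 genes. The medians of the 6 were -1.99 and 1.62, and DESeq2 called 1 and 2 of them, while edgeR called 0. The 3 tested pancreatic acinar markers were called lower by edgeR at the low and high doses (0.171% and 0.891% of all genes). At the middle dose edgeR called 0 and DESeq2 called 1. All 3 had an unadjusted p under 0.05 there, with a median log2 change of -1.73. The 6 listed markers summed to 5.86 to 7.35 CPM in vehicle and at most 0.117 at the low dose. The sum was 1.77 to 2.03 at the middle dose and at most 1.42 at the high dose. No listed marker was at 0 in all libraries. The part of these cells in the histone values was not tested.

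**Figure D5:**
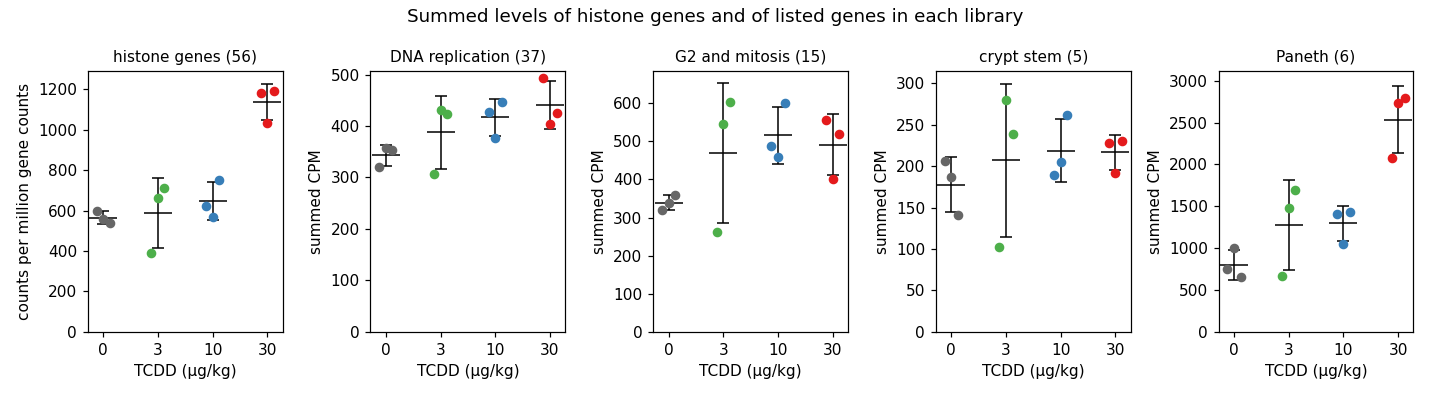
Summed levels in each library by TCDD dose in µg/kg (horizontal axis), as CPM of gene counts for the 56 histone genes and as summed CPM for listed DNA replication, G2 and mitosis, crypt stem and Paneth genes (vertical axes). Points are libraries, with mean and SD of 3. The histone sum at the high dose (1036 to 1193) and the Paneth sum (2074 to 2794) lie above all other libraries.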

How the data were processed

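Libraries were grouped by the dose given in the labels, and replicates were numbered in accession order. The authors deposited whole-number counts for each Ensembl gene, made with HTSeq 0.6.1 after TopHat2 2.1.0 alignment and Trimmomatic 0.33 trimming to GRCm38, per the submitters' processing notes. The annotation release, strand setting and read length are not given in the sources used here. Reads in no gene, in several genes or at several places were kept apart from gene totals (25.0 to 30.1% in no gene, 31.4 to 38.8% at several places). Of 46078 genes, 45143 matched GENCODE M21, which gave symbols, positions and sequences.

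Counts were fitted with edgeR 4.0.16 in R 4.3.3 (TMM scaling, filterByExpr, 1 quasi-likelihood model of 4 groups and 12 libraries, prior count of 2 for CPM on the log scale). Calls needed a BH adjusted p under 0.05 and 1.5-fold. Medians came from all 21759 genes with at least 10 counts. SEs were derived from the F statistic. Replicates within groups differed beyond counting noise, with a chi-square per gene of at least 10.2. Scripts were tested on simulated data with known folds.

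The members and lists were chosen with earlier results of these data known. Named genes were the 3 members with the most counts in each class, the 15 of the called members with the smallest p at 30 µg/kg, the germline members, genes near the count limit, Slbp and Npat, and called genes of the lists. The stem-loop search after the stop codon was chosen after seeing the data. Bases beyond annotated 3′ ends were not searched. Alternatives were scaling by median of ratios or by upper quartile, a filter of 10 counts in total, DESeq2 1.42.0, the compared groups alone, removal of a spline trend over length and GC, the library index as a covariate, and leaving out each library. The spline trend was fitted on all protein-coding genes, with the members among them.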

Additional observations from a re-analysis of the deposited data

Results flagged for a closer look

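A signal outside the gene counts stood above the level in the control libraries. Reads aligned to more than 1 place, which enter no gene count, made up a mean of 37.7% of reads at 30 µg/kg and 33.8% in vehicle, and every library of 30 µg/kg was above every vehicle library. Which genes these reads came from is not given in the counts.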

How the results depend on the processing

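No paired analysis was possible because the labels give no replicate numbers that are shared between groups. No called change of a named member, and none of the medians below, changed direction under the alternatives run. The number of members called higher at 30 µg/kg stayed within 1.5 times the reported 36 except with the length and GC trend removed (19) and without vehicle replicate 3 (23), and was 23 to 30 when 1 library was left out. In the trend 12 were called with the length and GC trend removed and 20 with the library index as a covariate, and 15 to 35 without 1 library. Between 30 and 10 µg/kg 10 were called with the length and GC trend removed and 8 to 18 without 1 library (8 without 10 µg/kg replicate 2). At 10 µg/kg 2 were higher with the length and GC trend removed, 4 with DESeq2 and 0 to 1 without 1 library. At 3 µg/kg 1 was higher with DESeq2 and 0 to 5 without 1 library, and 0 were lower with the compared groups alone. The 5 were called without 3 µg/kg replicate 1 (0.639% of all genes). With the length and GC trend removed the median log2 changes at 30 µg/kg were 0.80 (all members), 0.52 (H1), 0.92 (H2A), 0.62 (H2B), 1.14 (H3) and 0.85 (H4). Under filterByExpr and DESeq2 the H1 median at 30 µg/kg was 0.83 and 0.82, and the H2B median at 10 µg/kg was 0.41 and 0.40. Without 1 library the H2B median at 10 µg/kg was 0.16 to 0.33 and the H4 median -0.18 to -0.027, and at 30 µg/kg the H4 median was 1.19 to 1.29. Causes of these differences were not tested. Depth limits the genes under 3 counts per library.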
